A study of Mus musculus with 27 samples.

Results

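Vip interneurons are GABAergic neurons that carry the peptide VIP (vasoactive intestinal peptide). They were examined here in single-nucleus RNA-seq of the mouse hippocampus. Nuclei were taken as Vip interneurons if they had 200 to 8000 detected genes, at most 5% mitochondrial UMIs (unique molecular identifiers, each standing for 1 captured RNA molecule), at least 3 UMIs of Gad1 and Gad2 together, at most 1 UMI of the excitatory gene Slc17a7, at most 1 UMI of the oligodendrocyte genes Mog and Mag together, and at least 2 Vip UMIs that outnumbered the UMIs of Sst, of Pvalb and of Lamp5. This rule found 611 nuclei, which were 4.26% of 14328 GABAergic nuclei and 0.253% of 241266 nuclei within the gene and mitochondrial limits. Counts per mouse ran from 6 to 49.

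The 27 libraries, 1 per mouse, came from mice with or without a transgene for human P301S tau driven by the mouse Prnp promoter, and with 2, 1 or no working copies of Cgas, the sensor of cytosolic DNA. Without the transgene there were 5 Cgas+/+ mice, 2 mice that were Cgas+/- and 2 that were Cgas-/-. With it there were 6 mice of each Cgas genotype, called P301S Cgas+/+, P301S Cgas+/- and P301S Cgas-/-. The Cgas deletion was present in every cell type, so no difference here can be assigned to Cgas in the Vip interneurons themselves. The mice were littermates from crosses of P301S with Cgas-/- animals, the labels give sex but no age, and the 4 tau-free mice with a Cgas deletion were all male.

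Neither the transgene nor the deletion could be checked independently of the labels. Gm43049, a transcript that was picked because its level followed the transgene label, was at 0 to 0.0855 CPM (counts scaled to the same total in every library or summed sample) in the whole libraries of the tau-free mice and at 3.12 to 18.1 CPM in those of the P301S mice. In Vip nuclei it had 0 UMIs in tau-free mice. Since it was picked for this pattern, these values describe the libraries and test no label. Cgas, listed under its older symbol Mb21d1, was at 1.44 ± 0.203 CPM (SD, n = 5) in whole Cgas+/+ libraries and at 1.89 ± 0.474 CPM (n = 2) in Cgas-/- libraries. With the transgene it was at 2.17 ± 0.696 CPM (n = 6) in Cgas+/+ and 1.74 ± 0.384 CPM (n = 6) in Cgas-/- libraries, the other way round. The assay reads the 3′ end of transcripts, and where the deletion lies relative to that end is not given in the sources used here, so these values check no genotype. In Vip nuclei of all 27 mice together Mb21d1 had 7 UMIs. The headers of 12 files carried software version 3.0.2 (replicates 1 and 2 of every group, all male) and those of 15 carried version 3.1.0. Library totals ran from 46091490 to 79484316 UMIs, and library pairs shared 0.101% to 0.570% of the barcodes of the smaller library, with 0 barcodes of Vip nuclei shared.

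Vip interneurons arise in the embryonic caudal ganglionic eminence (CGE), as do many Lamp5 cells, whereas Sst and Pvalb cells come from the medial ganglionic eminence (MGE). In the hippocampus and cortex, many Vip cells synapse mainly on other interneurons, so that their firing releases pyramidal cells from inhibition, while a set with the peptide cholecystokinin (Cck) contacts pyramidal cell bodies. They respond to acetylcholine and serotonin, and serotonin acts on them quickly through the ion channel receptor Htr3a.

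The promoter of the gene that defines the cells, and that of the gene with the smallest p-value in the contrasts, Ptchd4, are shown as the 250 bases before the annotated start (RefSeq, GRCm38.p6, 5′ to 3′, plus strand). Capitals mark TATAAA, the letters of a TATA box, and TGACGTC, which holds most of the cyclic AMP response element by which Vip transcription follows neuronal activity.
Vip, chr10:5638968-5639217: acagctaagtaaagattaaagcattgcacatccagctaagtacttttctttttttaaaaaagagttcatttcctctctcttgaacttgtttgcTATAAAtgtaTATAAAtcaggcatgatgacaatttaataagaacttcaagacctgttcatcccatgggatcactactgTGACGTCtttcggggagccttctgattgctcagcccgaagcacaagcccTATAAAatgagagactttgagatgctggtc
Ptchd4, chr17:42315697-42315946: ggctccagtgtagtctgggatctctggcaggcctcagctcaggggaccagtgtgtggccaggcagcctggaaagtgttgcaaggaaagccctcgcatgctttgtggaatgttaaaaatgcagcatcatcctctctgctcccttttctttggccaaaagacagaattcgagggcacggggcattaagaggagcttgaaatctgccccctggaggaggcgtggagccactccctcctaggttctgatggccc
Searched on both strands, TGACGTC stood once in the Vip window, its leftmost base 79 bases before the start, and TATAAA stood 3 times, the nearest 30 bases before it. TGACGTC was in 2.78% and TATAAA in 12.4% of 32851 promoter windows of the same length. The Ptchd4 window held neither, and neither window held the MEF2 site, which 2.92% of windows held. These matches describe letters only.

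The gate took nuclei with little Vip RNA as well as much. Members had a median of 7440 UMIs (2613 to 47030) and 2689 genes (1360 to 7219). Vip UMIs per member ran from 2 to 23 with a median of 3, and 172 nuclei had exactly 2. At the threshold, the 172 members with 2 Vip UMIs had Adarb2, a CGE gene for an RNA-binding protein of the adenosine deaminase family, at 18458 CPM and Prox1, a CGE transcription factor, at 331 CPM, while 300 GABAergic nuclei with 1 Vip UMI, which were not members, had them at 15594 and 239 CPM. The 11008 GABAergic nuclei with no Vip UMI and in no class had them at 5038 and 35.7 CPM. Nuclei on either side of the threshold were thus closer to each other in these 2 genes than to nuclei with no Vip UMI.

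Background Vip UMIs were rare in oligodendrocyte and excitatory nuclei, which were taken without any UMI of Gad1 or Gad2. At least 2 Vip UMIs were found in 3 of 30279 oligodendrocyte nuclei (0.00991%, 95% exact Clopper-Pearson interval 0.00204% to 0.0290%) and in 2 of 19781 excitatory nuclei (0.0101%, 0.00122% to 0.0365%). At least 1 was found in 0.380% and 0.460% of them, against 6.46% of GABAergic nuclei. Median UMIs per library were 1633.5 to 2941 in oligodendrocyte nuclei and 10471 to 16571 in excitatory nuclei, and the median GABAergic nucleus had 9585.5. Excitatory nuclei were therefore as deep as GABAergic nuclei or deeper and still had few Vip UMIs. Such intervals cover counting error only. Members held 2591 of the 5793 Vip UMIs of nuclei within the limits (44.7%), so most Vip UMIs lay in nuclei outside the gate.

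Most genes of the CGE lineage, which the gate did not use, were higher in Vip nuclei than in the other classes. These levels were read from the same nuclei that the gate chose, with class sums pooled over mice, so they are a description with no test. Of 12 CGE genes, Adarb2, Prox1, Npas1, Htr3a, Cnr1, Npas3 and Egfr were higher in Vip nuclei than in the pooled Sst, Pvalb and Lamp5 nuclei of the same mouse in 27 of 27 mice. Adarb2 was at 20032 CPM in Vip nuclei, 4414 CPM in Lamp5 nuclei, 61.3 CPM in Sst nuclei and 97.6 CPM in Pvalb nuclei. Prox1 was at 305, 73.5, 3.91 and 9.10 CPM in the same order. Both were thus highest in Vip nuclei and next in Lamp5 nuclei. Nr2f2, a transcription factor, was at 49.5 against 15.6 CPM in the 3 other classes pooled and higher in 25 of 27 mice. Npas1, also a transcription factor, was at 167 CPM in Vip nuclei and 74.3 CPM in Sst nuclei. Reln, the extracellular protein reelin, was the reverse of its list, at 143 CPM in Vip nuclei against 1347 CPM in Lamp5 and 1062 CPM in Sst nuclei, lower in 27 of 27 mice. Kit, a receptor tyrosine kinase, was lower in Vip nuclei (105 CPM) than in Lamp5 nuclei (197 CPM), and the transcription factor Sp8 was at 3.39 CPM. Its relative Sp9 also went against the list, at 3.95 CPM in Vip nuclei and 12.05 CPM in the other 3 classes pooled, lower in 24 of 27 mice.

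MGE genes were low, with exceptions. Lhx6, the transcription factor that specifies MGE interneurons, was at 1.13 CPM in Vip nuclei and 77.6 CPM in the other 3 classes pooled. Nkx2-1 had 0 UMIs. Nxph1, a secreted ligand of neurexins, was at 105 against 3305 CPM, and Satb1 at 41.4 against 303 CPM. These genes were lower than in the other 3 classes pooled in 27 of 27 mice, apart from Nkx2-1, which was also at 0 in Sst and Pvalb nuclei. In Lamp5 nuclei alone, however, Satb1 was lower than in Vip nuclei, at 13.3 CPM. Maf differed little, at 292 CPM in Vip nuclei against 376 CPM in the other 3 classes pooled. Elfn1, a postsynaptic adhesion protein, was at 197 CPM in Vip nuclei, below Sst nuclei (273 CPM) and above Pvalb (16.9 CPM) and Lamp5 nuclei (5.46 CPM). Grin2d, an NMDA receptor subunit, was at 83.4 CPM in Vip nuclei against 57.7 CPM in the other 3 classes pooled and higher in 24 of 27 mice.

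The 20 genes with the highest ratio of Vip to other interneurons, among genes of at least 20 CPM that were higher in Vip nuclei in every mouse (164 genes, without those of the gate itself), held receptors, secreted proteins and adhesion molecules. The highest ratio, 109, was that of D030055H07Rik, at 36.9 CPM in Vip nuclei and 0.338 CPM in the others. Sema5b, a transmembrane semaphorin that guides axons, had a ratio of 77.3 and was at 331 CPM. Cbln2, a secreted organizer of synapses, had a ratio of 54.8, and Htr3a, the serotonin-gated channel, 41.3. Grpr, the receptor of gastrin-releasing peptide, had a ratio of 15.9 and Npy1r, a receptor of neuropeptide Y, 15.4. Cnr1, the cannabinoid receptor of many Cck cells, was at 417 CPM, with a ratio of 9.88. Also among them were Gm39185, Prox1os, Adarb2, Fbln2, Cp, Asic4, Rgs12, Smoc1, Cadps2, Prox1, Sorcs3 and Wnt5b. They were chosen for being high in Vip nuclei, so that is no finding. Lamp5 nuclei came next for some of them, Adarb2, Prox1 and Sorcs3 included.

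**Figure D1:**
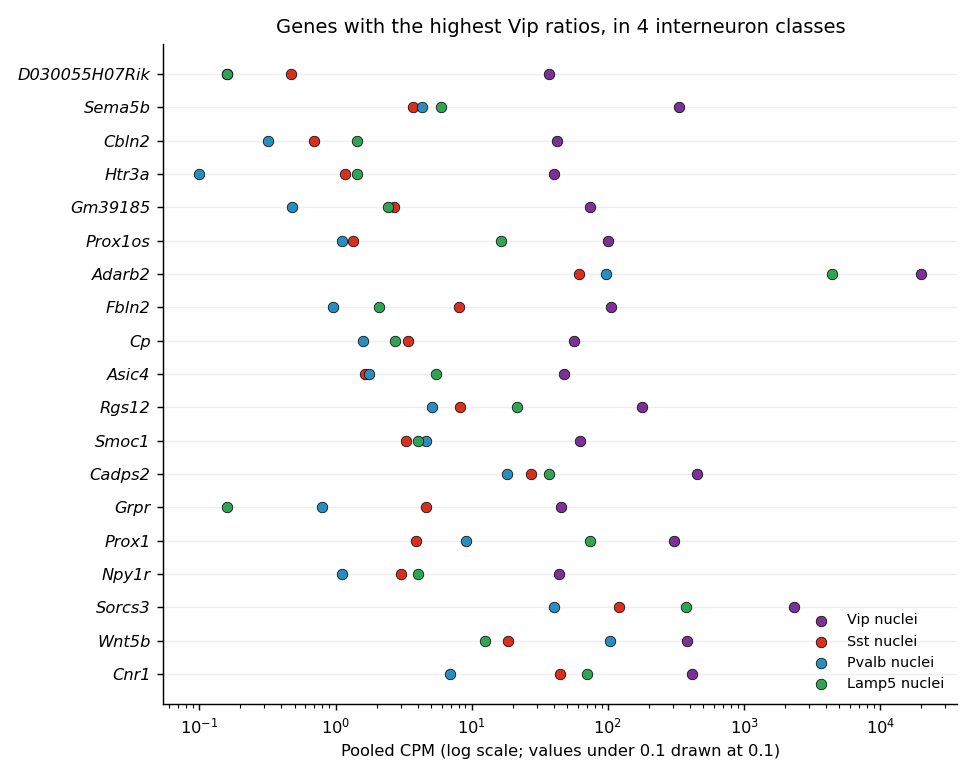
Pooled level (CPM, log scale) of genes with the highest ratios in Vip nuclei (purple), Sst nuclei (red), Pvalb nuclei (blue) and Lamp5 nuclei (green), with 1 point per class and values under 0.1 drawn at 0.1. The genes were chosen for being highest in Vip nuclei, so the purple point is the rightmost in every line, and Adarb2 reaches 20032 CPM.

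Receptors for the transmitters that drive these cells were present at very different levels. Htr2c, a serotonin receptor coupled to G proteins, was at 345 CPM in Vip nuclei and 46.1 CPM in the others, with a range over mice of 82.8 to 2744 CPM. The highest value was that of Cgas+/+ replicate 2, in whose 7 Vip nuclei 4 genes of the choroid plexus, a tissue rich in Htr2c, summed to 572 CPM. Htr4 was at 131 against 66.7 CPM. Both serotonin receptors were higher in Vip nuclei in 27 of 27 mice, whereas Htr2a (6.78 against 67.0 CPM) and Htr1f (29.7 against 132 CPM) were lower in 27 of 27. Chrna4 and Chrna5, subunits of nicotinic acetylcholine receptors, were at 12.8 and 5.83 CPM against 2.84 and 0.709 CPM, and Chrm3, a muscarinic receptor, was at 1383 against 967 CPM, though Sst nuclei alone were at 1433 CPM. Chrm2, another muscarinic receptor, was low at 42.2 CPM against 201 CPM. Of the receptors for VIP itself, Vipr1 was at 8.66 CPM and Vipr2 at 2.64 CPM.

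Genes that the study named in interneurons for excitability and inhibition were all present. Among them were the transcription factor Mef2c (521 CPM in Vip nuclei), the GABA-B receptor subunit Gabbr2 (435), the potassium channels Kcnc1 (203) and Kcnc2 (1033), the sodium channel Scn1a (345), the calcium channel subunits Cacnb2 (858) and Cacna1e (216), and the calcium release channel Ryr3 (382). Kcnc1 and Kcnc2, the channels of fast spiking, were at 587 and 3071 CPM in Pvalb nuclei, so both were lower in Vip nuclei. Cacnb2 was higher in Vip nuclei than in the other 3 classes pooled in 27 of 27 mice, but Lamp5 nuclei alone were at 873 CPM.

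Calb2 (calretinin), which marks the cells that inhibit interneurons, and Cck were each detected in a minority of the nuclei. Calb2 without Cck was found in 107 nuclei (17.5%), Cck without Calb2 in 113 (18.5%), both in 21 (3.44%) and neither in 370 (60.6%). Nuclei with Cck alone had Cnr1 at 811 CPM and Reln at 267 CPM, against 250 and 30.02 CPM in those with Calb2 alone, which had Penk, the precursor of enkephalin, at 43.4 CPM against 8.29 CPM. The Cck nuclei were deeper, with a median of 9937 against 7327 UMIs, and the 370 nuclei with neither gene had a median of 7131.5. The part of depth in these shares was not tested. Detection needed only 1 UMI, and no background share was measured for these 2 genes. GABAergic nuclei with no Vip UMI and in no class had Calb2 at 2.28 CPM and Cck at 24.3 CPM, against 29.2 and 74.0 CPM in pooled Vip nuclei.

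Clustering the 611 nuclei among themselves gave 9 subclusters, numbered by size from 129 to 36 nuclei. They were defined from these same nuclei and chosen after the data were seen. They are therefore given by their leading genes, and neither genes nor shares were tested between them. Subcluster 1 (129 nuclei) was led by Sntb1, Pcdh11x and Sox5. Subcluster 2 (92) was led by Otx2os1 and held Qrfpr and Grm8. Subcluster 3 (91) had Mybpc1, Col15a1 and Kirrel3 among its leading genes and the highest Crh, corticotropin-releasing hormone, at 33.6 CPM. Subcluster 4 (70) was led by Chat, the enzyme that makes acetylcholine, at 114 CPM against 3.95 CPM in the rest, and held Slc5a7, the choline transporter, at 79.8 against 11.8 CPM. Chat and Slc5a7 thus led the same subcluster. Subcluster 6 (51) held Vegfc, Cpne4 and Wnt5b and the highest Calb2, at 76.0 CPM.

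Cck and Cnr1 were highest in 2 small subclusters. Subcluster 7 (40 nuclei) had Cck at 418 CPM, Cnr1 at 1215 CPM, Reln at 892 CPM and Htr3a at 164 CPM. Subcluster 8 (36) had Cck at 225 CPM, Cnr1 at 921 CPM and Col25a1 at 2864 CPM, while Reln was at 9.30 CPM. The 2 Cck subclusters therefore differed in Reln. Mef2c was at 1123 CPM in subcluster 3 and at 83.7 CPM in subcluster 8.

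Subclusters 5 and 9 carried genes of other cells. Subcluster 5 (66 nuclei) was led by Gpc5 and held Slc1a3 and Gfap, genes of astrocytes, and 11 of its nuclei were called likely doublets. Only 18.2% of its nuclei had Slc1a3, while 63.6% had Gpc5 and 84.8% had Npas1. Penk, at 75.1 CPM, was highest there among the subclusters, so leaving out subcluster 5 also removed nuclei without Slc1a3. Subcluster 9 (36) had Slit3, Tshz2 and Nxph1 among its leading genes, a median of 17018.5 UMIs and 24 likely doublets. Of all members 45 (7.36%) were marked as likely doublets, against 6.93% of GABAergic nuclei, but the number marked per library was preset. The main counts below were therefore also run without these 2 subclusters.

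**Figure D2:**
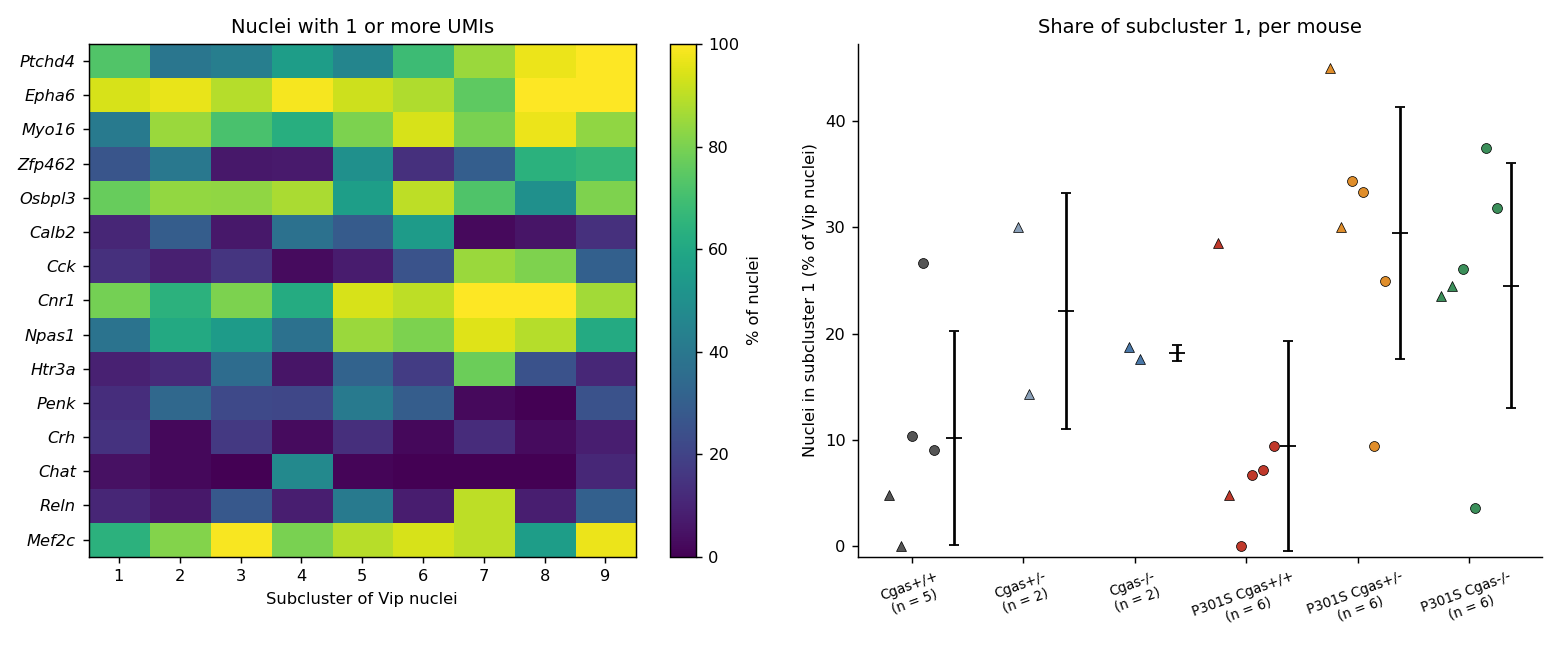
Left, share of nuclei with at least 1 UMI (colour, % of nuclei) for 15 genes (rows) in subclusters 1 to 9 of the Vip nuclei (columns). Right, share of the Vip nuclei of each mouse that fell in subcluster 1 (%), with 1 point per mouse, triangles for header version 3.0.2, circles for 3.1.0, and bars for mean and SD. Cck and Cnr1 are most frequent in subclusters 7 and 8, and subcluster 1 averages 29.5% in P301S Cgas+/- mice and 9.42% in P301S Cgas+/+ mice.

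The first question of the design was whether tau or Cgas altered how many Vip nuclei were recovered. With tau, the Vip share of GABAergic nuclei did not pass the test, and with the Cgas deletion it was higher on average in tau mice but failed adjustment for 3 tests. In Cgas+/+ mice the shares were 4.30%, 1.90%, 4.69%, 5.52% and 1.74% in replicates 1 to 5. In P301S Cgas+/+ mice they were 1.63% at the lowest, 3.49% at the median and 6.10% at the highest. In P301S Cgas+/- mice the same values were 1.30%, 5.27% and 8.65%, and in P301S Cgas-/- mice 4.44%, 5.78% and 8.73%. Groups overlapped throughout, and 3 of the 6 P301S Cgas-/- mice lay above all P301S Cgas+/+ mice.

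The mean share was 3.71% ± 1.55 (SD, 6 mice) in P301S Cgas+/+ and 3.63% ± 1.71 (SD, 5 mice) in Cgas+/+ mice, a difference of 0.0806 percentage points (two-sided exact permutation test, p = 0.948, adjusted p = 0.948). It was 6.20% ± 1.73 (n = 6) in P301S Cgas-/- mice, 2.49 points above P301S Cgas+/+ (exact permutation test, p = 0.0281, adjusted p = 0.0844). It was 5.05% ± 2.51 (n = 6) in P301S Cgas+/- mice, 1.34 points above the same controls (exact permutation test, p = 0.294, adjusted p = 0.442). The deletion and heterozygous contrasts share the P301S Cgas+/+ mice. The tau-free Cgas+/- mice had 2.87% ± 1.90 (n = 2) and the tau-free Cgas-/- mice 4.45% ± 0.0387 (n = 2). The smallest p that 6 against 6 mice allows is 0.002165. Nuclei of at most 4000 genes, as the study used, gave 3.61 points for the deletion (exact permutation test, adjusted p = 0.0325). Leaving out subclusters 5 and 9 gave 2.52 points (exact permutation test, adjusted p = 0.0260). That setting removed Vip nuclei only, since other GABAergic nuclei were not subclustered. The 2 subclusters held 19 and 8 of the 109 Vip nuclei of P301S Cgas+/+ mice and 18 and 9 of the 185 of P301S Cgas-/- mice. The call thus depends on which nuclei enter.

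The level of cortical marker genes in the whole libraries moved with the share. The summed level of 8 genes of cortical excitatory neurons in all nuclei (among them Cux2, Rorb, Fezf2, Tle4, Tshz2 and Hs3st4) was 1930 ± 558 CPM (SD, n = 6) in P301S Cgas+/+, 2491 ± 405 CPM in P301S Cgas+/-, 2718 ± 456 CPM in P301S Cgas-/- and 2417 ± 599 CPM (n = 5) in Cgas+/+ mice. Over the 27 mice the share rose with this level (Pearson r = 0.643, permutation p = 0.00034, adjusted p = 0.00147; Spearman rho = 0.658, permutation p = 0.00032; 13 relations computed). Without the 2 mice farthest from the median r was 0.557. Within the libraries of version 3.1.0 r was 0.643 (n = 15, permutation test, adjusted p = 0.0216), but rho was 0.486 and did not pass (permutation test, adjusted p = 0.0897), and r without 2 mice was 0.493. Within those of 3.0.2 r was 0.512 (n = 12, permutation test, adjusted p = 0.103) and rho 0.280 (adjusted p = 0.410 by the same test), and neither passed. Its part in the difference between groups was not tested.

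Denominators mattered too. In P301S Cgas+/- replicate 1, 67.1% of the 1536 GABAergic nuclei had at least 2 UMIs of striatal genes, and its share of 1.30% was the lowest of its group. Counted against Vip, Sst, Pvalb and Lamp5 nuclei only, the Vip share was 15.3% ± 1.75 in Cgas+/+, 19.8% ± 6.59 in P301S Cgas+/+, 22.6% ± 3.05 in P301S Cgas+/- and 23.4% ± 6.61 in P301S Cgas-/- mice. On that denominator the deletion difference was 3.64 points (exact permutation test, adjusted p = 0.377) and the tau difference 4.51 points (exact permutation test, adjusted p = 0.260). Against the cortical marker level this share had r = 0.469 (permutation test, adjusted p = 0.0248), r = 0.325 without 2 mice, and rho = 0.406, which did not pass (permutation test, adjusted p = 0.0530).

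**Figure D3:**
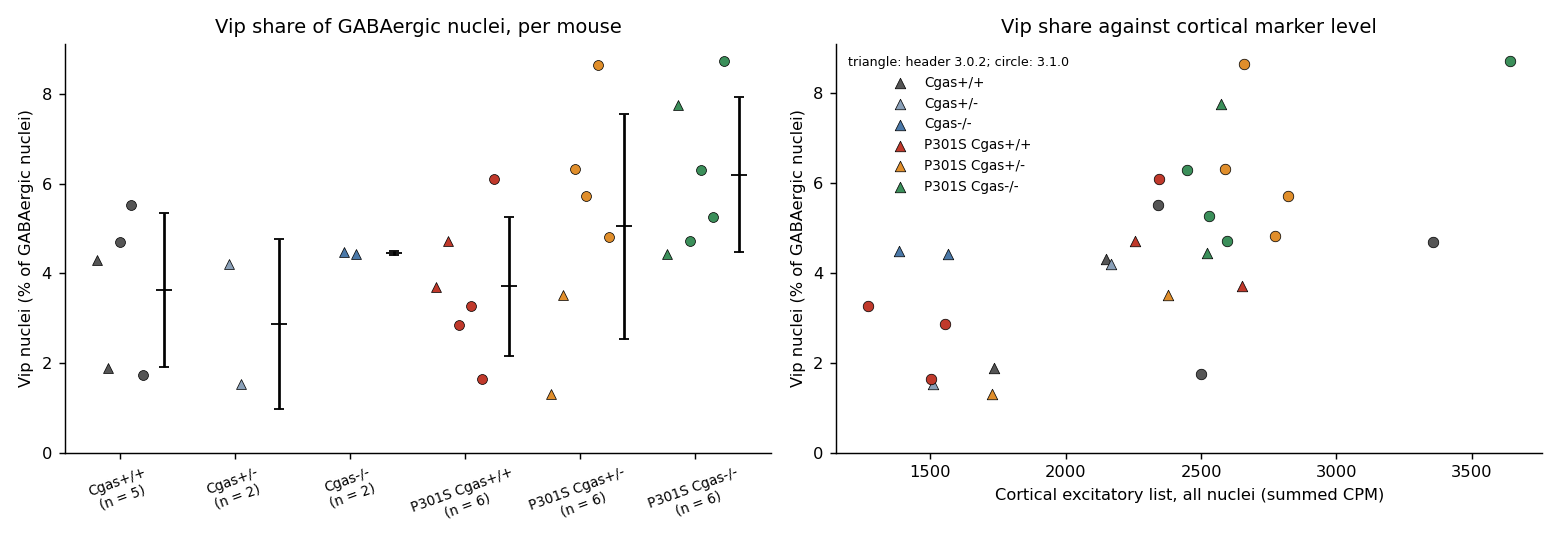
Left, Vip nuclei as a share of GABAergic nuclei (%) in each of the 27 mice by group, with mean and SD as bars. Right, the same share against the summed level of the cortical excitatory list in all nuclei of the library (CPM), with triangles for header version 3.0.2 and circles for 3.1.0. P301S Cgas-/- mice run from 4.44% to 8.73% and P301S Cgas+/+ mice from 1.63% to 6.10%, and the share is higher in libraries with more cortical signal (r = 0.643).

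The makeup of the Vip nuclei by Calb2 and Cck gave no call. After thinning each nucleus to 4000 UMIs, which left out 14 of the 611, Calb2 was found in 17.2% ± 7.62 of Vip nuclei in Cgas+/+ mice, 11.1% ± 7.03 in P301S Cgas+/+, 10.3% ± 7.86 in P301S Cgas+/- and 13.2% ± 4.82 in P301S Cgas-/-. Cck was found in 16.2% ± 12.3, 13.9% ± 4.31, 11.8% ± 10.6 and 13.2% ± 8.59 in the same order. Groups overlapped for both genes, and all 6 comparisons had an adjusted p of 0.846 (exact permutation test). The largest of the 6 differences was that of Calb2 between P301S Cgas+/+ and Cgas+/+ mice, -6.09 points.

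Levels of the marker genes likewise gave no call. Of the comparisons of Mef2c, Calb2 and Cck on the log2(CPM + 1) scale, the smallest adjusted p was 0.877 (exact permutation test, adjusted over 18 comparisons of which the others were of Vip, Gad1 and Gad2). Vip, Gad1 and Gad2 chose the nuclei, so their levels are a description and no test of them is given. Mef2c was 0.27 higher in P301S Cgas+/- than in P301S Cgas+/+ mice (9.22 ± 0.20 against 8.95 ± 0.21, n = 6 each, exact permutation test, p = 0.0498, adjusted p = 0.877), and 4 of 6 mice lay above all controls. In P301S Cgas-/- mice Mef2c was at 8.90 ± 0.30, a difference of -0.05, and the tau difference was -0.04. Gad1, a gene of the gate, was 0.42 higher in P301S Cgas+/- than in P301S Cgas+/+ mice.

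Genes were then tested across the summed Vip nuclei of each mouse with edgeR's quasi-likelihood test, with sex as a covariate and Benjamini-Hochberg adjustment over the 4004 genes that passed a low-count filter. Mice with fewer than 10 Vip nuclei, Cgas+/+ replicate 2 (7 nuclei) and P301S Cgas+/+ replicate 3 (6 nuclei), were left out, so that 21 mice of 4 groups entered, with log2 fold changes given as ± SE. In Vip interneurons no gene was called with tau or with the Cgas deletion in tau mice (0% of those tested, while DESeq2 called 1 gene in each), and 5 genes were called with 1 lost copy of Cgas in tau mice, 0.125% of those tested. They were Ptchd4 and Osbpl3, which rose, and Epha6, Myo16 and Zfp462, which fell. With the header version as a covariate, an alternative chosen after the data were seen, 3 genes were called. Osbpl3 (edgeR, log2 fold change 1.08, adjusted p = 0.065) and Zfp462 (edgeR, log2 fold change -1.33, adjusted p = 0.0585) then missed the threshold at nearly the same size.

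Ptchd4, which encodes a membrane protein with a patched domain, was the clearest of them (chr17:42315947-42505077, plus strand, GRCm38). It was at 630, 395, 398, 380, 289 and 285 CPM in P301S Cgas+/- replicates 1 to 6. In the 5 P301S Cgas+/+ mice of the fit it was at 136, 170, 128, 97.9 and 144 CPM, and in replicate 3, left out of the fit, at 82.8 CPM. All 6 heterozygous mice were above all P301S Cgas+/+ mice, and replicate 1 stood apart from its group. The means were 396 ± 126 CPM (SD, n = 6) and 135 ± 26.1 CPM (n = 5), a log2 fold change of 1.51 ± 0.20 (edgeR, adjusted p = 1.72e-05). Leaving out each mouse in turn gave 1.37 to 1.59, and Ptchd4 was called every time.

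In P301S Cgas-/- mice Ptchd4 was at 242, 323, 320, 263, 236 and 211 CPM, also above every P301S Cgas+/+ mouse. The mean was 266 ± 46.1 CPM (n = 6), and the log2 fold change of 0.99 ± 0.20 did not pass (edgeR, adjusted p = 0.0667), while DESeq2 called it (adjusted p = 0.0290). In tau-free Cgas+/+ mice it was at 137, 257, 173 and 167 CPM, with 76.2 CPM in the mouse left out of the fit. These values overlapped those of P301S Cgas+/+ mice, and the tau log2 fold change was -0.53 ± 0.23 (edgeR, adjusted p = 0.9997). The tau-free Cgas+/- mice, at 182 and 317 CPM, and the tau-free Cgas-/- mice, at 233 and 136 CPM, entered no contrast.

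Ptchd4 was lower in Vip nuclei than in other interneurons in 26 of 27 mice, with 254 CPM against 700 CPM pooled. In Sst, Pvalb and Lamp5 nuclei together it was at 678 ± 95.6 CPM in P301S Cgas+/- and 684 ± 105 CPM in P301S Cgas+/+ mice, whose ranges overlapped (496 to 746 and 503 to 805 CPM). The difference in log2 fold change between Vip and these nuclei of the same mice was 1.51 (edgeR with a mouse block over 6202 genes, adjusted p = 3.13e-04), and it was the only gene called of those tested (0.0161%). Against Lamp5 nuclei alone, the class next to Vip nuclei in Adarb2 and Prox1, the difference was 1.31 and did not pass (edgeR, adjusted p = 0.403). Those Lamp5 nuclei also carried the MGE genes Lhx6 (63.6 CPM) and Nxph1 (3120 CPM), unlike Vip nuclei (1.13 and 105 CPM). For the deletion contrast it was 0.88 (edgeR, adjusted p = 0.416) and for tau -0.32 (edgeR, adjusted p = 0.9998).

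Among the subclusters Ptchd4 was highest in subcluster 8, at 493 CPM, then in subcluster 1, at 377 CPM, and subcluster 9, at 347 CPM. It was lowest in subclusters 3 and 2, at 109 and 111 CPM. Subcluster 8 had few nuclei in either group and its shares overlapped, at 0% to 5% of the Vip nuclei of each P301S Cgas+/- mouse and 0% to 21.4% of those of each P301S Cgas+/+ mouse. Subcluster 1 held 29.5% ± 11.9 of Vip nuclei in P301S Cgas+/- mice, 9.42% ± 9.90 in P301S Cgas+/+, 24.5% ± 11.5 in P301S Cgas-/- and 10.2% ± 10.1 in Cgas+/+ mice. Single mice moved the mean of every group. With each mouse left out in turn, it ran from 26.4% to 33.5% in P301S Cgas+/- and from 5.59% to 11.3% in P301S Cgas+/+ mice. In P301S Cgas-/- mice it ran from 21.9% to 28.7%, and in Cgas+/+ mice from 6.05% to 12.7%. Without the nuclei of subcluster 1, the log2 fold change of Ptchd4 in P301S Cgas+/- mice was 1.41 (edgeR, adjusted p = 7.63e-04), and it was then the only gene called. Subcluster 2 held 26 of the 109 Vip nuclei of P301S Cgas+/+ mice and 16 of the 159 of P301S Cgas+/- mice. In subclusters 1 and 2, Epha6 was at 988 and 1852 CPM and Myo16 at 128 and 310 CPM. Osbpl3 was at 298 and 333 CPM there and Zfp462 at 62.9 and 78.5 CPM. The part of subcluster 2 in the calls was not tested. The nuclei of subcluster 1 are part of the Ptchd4 level, so no correlation of these 2 measures is given. Over the 27 mice, Ptchd4 against the cortical list gave r = 0.367 (permutation test, adjusted p = 0.0853), which did not pass, and rho = 0.457 (permutation test, adjusted p = 0.0379), which did, with r = 0.374 without 2 mice. Within version 3.1.0 r was 0.689 and rho 0.696 (permutation test, adjusted p = 0.0113 and 0.0131), and within version 3.0.2 r was 0.00572 and rho -0.00699 (permutation test, adjusted p = 0.986 and 0.991). The difference between the 2 versions was not tested. The share of subcluster 1 against the cortical list gave r = 0.342 (permutation test, adjusted p = 0.103) and rho = 0.432 (permutation test, adjusted p = 0.0420), with r = 0.237 without 2 mice. Within version 3.1.0 r was 0.521 and rho 0.586 (permutation test, adjusted p = 0.0772 and 0.0420), and within version 3.0.2 r was 0.193 and rho 0.309 (permutation test, adjusted p = 0.595 and 0.387). The part of the cortical marker level in the Ptchd4 result was not tested.

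Osbpl3, an oxysterol-binding protein family member that binds lipids (chr6:50293330-50456201, minus strand), was at 466, 200, 414, 478, 401 and 408 CPM in P301S Cgas+/- mice. In the 5 P301S Cgas+/+ mice of the fit it was at 311, 193, 169, 91.4 and 195 CPM. All heterozygous mice but replicate 2 were above all controls. The means were 395 ± 100 and 192 ± 78.8 CPM, a log2 fold change of 1.08 ± 0.23 (edgeR, adjusted p = 0.0474). In P301S Cgas-/- mice it was at 300.5 ± 79.9 CPM (edgeR, log2 fold change 0.66, adjusted p = 0.999), and in other interneurons it was at 337 ± 46.1 CPM in P301S Cgas+/- and 272 ± 39.1 CPM in P301S Cgas+/+ mice.

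Epha6, a receptor of ephrins (chr16:59653483-60605531, minus strand), fell from 1433 ± 497 CPM (n = 5) in P301S Cgas+/+ to 773 ± 171 CPM (n = 6) in P301S Cgas+/- mice. The heterozygous mice had 695, 813, 774, 537, 1060 and 760 CPM and the controls of the fit 1013, 1283, 1596, 2220 and 1053 CPM. Only heterozygous replicate 5 lay within the range of the controls. The log2 fold change was -0.90 ± 0.17 (edgeR, adjusted p = 0.0254), and in P301S Cgas-/- mice, at 1138 ± 228 CPM, it was -0.33 (edgeR, adjusted p = 0.999).

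Myo16, an unconventional myosin of neurons (chr8:10153911-10634742, plus strand), was at 123, 184, 173, 139, 229 and 251 CPM in P301S Cgas+/- mice and at 215, 387, 448, 281 and 320 CPM in the controls of the fit. Its groups overlapped by the lowest control, and control replicate 3, outside the fit, was lower still at 116 CPM. The log2 fold change was -0.89 ± 0.19 (edgeR, adjusted p = 0.0428). Zfp462, a zinc finger protein (chr4:54945048-55083563, plus strand), was the lowest of the called genes, at 8.18, 22.3, 41.7, 58.4, 47.0 and 50.3 CPM against 63.8, 141, 99.0, 124 and 70.4 CPM. Its groups did not overlap, but they rested on 58 UMIs in all heterozygous Vip nuclei. The log2 fold change was -1.33 ± 0.29 (edgeR, adjusted p = 0.0474). It was the least stable of the calls, lost in all but 1 of the 11 fits that left out a mouse (edgeR, adjusted p up to 0.2503) and kept in 3 of 12 other settings.

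**Figure D4:**
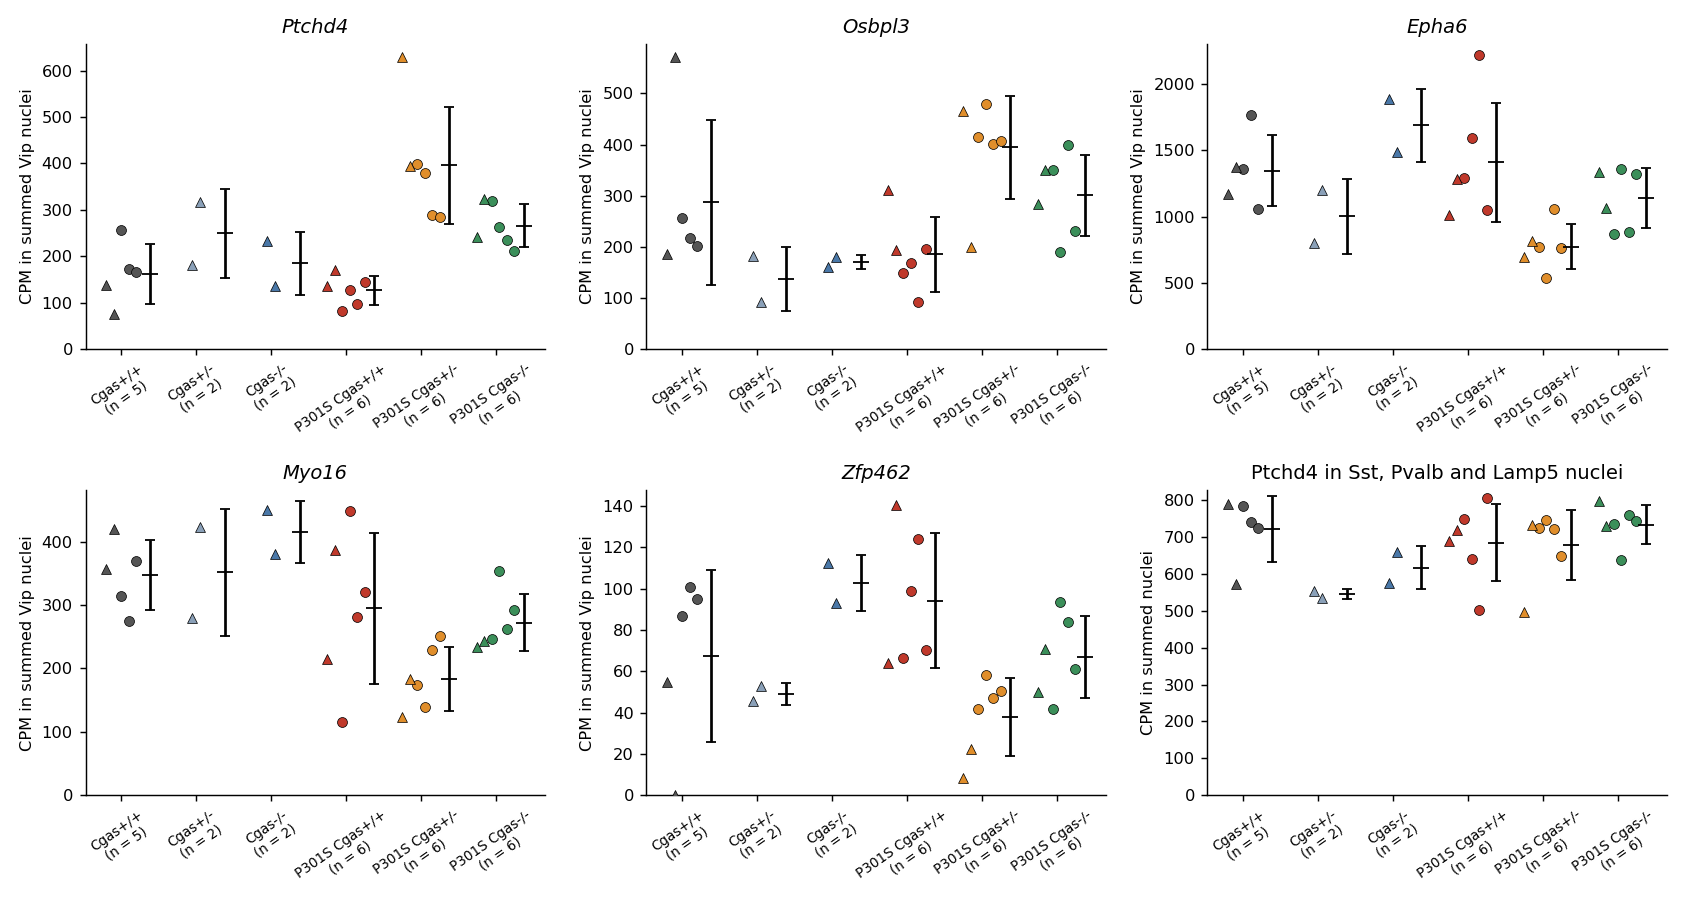
Level (CPM in the summed Vip nuclei of each mouse) of the 5 called genes by group, and in the last panel Ptchd4 in the summed Sst, Pvalb and Lamp5 nuclei of the same mice. Points are mice (triangles, header version 3.0.2; circles, 3.1.0), bars are mean and SD, and mice left out of the fit are drawn. Ptchd4 in Vip nuclei is between 285 and 630 CPM in P301S Cgas+/- mice and at most 170 CPM in P301S Cgas+/+ mice, while the last panel shows overlapping groups.

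The call of Ptchd4 depended on which nuclei entered, and those of the other 4 genes on which mice and nuclei entered and on the covariates. Of the 11 fits that left out a mouse, Epha6 was called in 5, Myo16 in 4, Osbpl3 in 2 and Zfp462 in 1. Without sex as a covariate Ptchd4 alone was called. Leaving out each mouse in turn left 1 to 6 genes called, and a single gene was left on omitting heterozygous replicate 1, 3 or 4, or P301S Cgas+/+ control 2 or 4. It was 2 on omitting control 6, and 3 on omitting heterozygous replicate 5 or control 5. Without subclusters 5 and 9, which left 19 mice with enough nuclei, no gene was called (edgeR, smallest adjusted p = 0.0607, 200 genes at an unadjusted p under 0.05), and Ptchd4 was at a log2 fold change of 1.19. With nuclei of at least 4 Vip UMIs, which left 13 mice, no gene was called either, and Ptchd4 was at 1.37 (edgeR, adjusted p = 0.952, with 219 genes at an unadjusted p under 0.05). DESeq2 called 16 genes. The summed level of 7 astrocyte genes in the Vip nuclei averaged 902 CPM in P301S Cgas+/+ (245 to 1998) and 487 CPM in P301S Cgas+/- mice (234 to 1096). The 8 oligodendrocyte genes averaged 192 (116 to 398) and 105 CPM (90.0 to 122), and the 8 genes of striatal projection neurons 130 (33.1 to 320) and 69.1 CPM (33.4 to 98.2), in the same order. The ranges overlapped for all 3 lists, and their part in the result was not tested.

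At an unadjusted p under 0.05, 242 genes (6.04%) passed for the heterozygous contrast, 189 (4.72%) for the deletion and 164 (4.10%) for tau. Beyond the calls, the genes of smallest p in the heterozygous contrast included Ntm, an adhesion molecule of the IgLON family (2422 ± 559 against 4067 ± 546 CPM). Meis2, a homeodomain transcription factor and also a striatal marker, was at 20.2 ± 14.8 against 93.4 ± 54.7 CPM. Shisa6, an auxiliary protein of AMPA receptors, had a log2 fold change of -0.54 and Astn2 -0.81. Among those with higher values, Adra1a, an adrenergic receptor, had 0.85, Sorcs1, a sorting receptor, 0.81, Clstn2, a synaptic calsyntenin, 1.10, Maml3 0.66 and Kctd16, an auxiliary subunit of GABA-B receptors, 0.57. None passed adjustment in edgeR (adjusted p from 0.0689 to 0.262), while DESeq2 called Ntm, Shisa6, Astn2, Adra1a, Sorcs1 and Clstn2 among its 16 genes (adjusted p from 0.00925 to 0.0305).

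In the deletion contrast, the genes of smallest p after Ptchd4 were Sorcs1 (1485 ± 423 against 856 ± 285 CPM), P3h2 (54.8 ± 19.7 against 22.6 ± 4.33 CPM) and Klhl2 (79.4 ± 12.4 against 142 ± 41.2 CPM). P3h2 was higher and Klhl2 lower in every one of the 6 mice than in the 5 controls of the fit, but both were named for their small p and neither passed adjustment. P3h2 passed the low-count filter in only 7 of the 11 fits that left out a mouse. The log2 fold change of Sorcs1 was 0.82 here and 0.81 in the heterozygous contrast, which has the same controls. Khdrbs2 (-0.63), Galnt10 (-0.996), Nhsl2 (-1.27), Meis2 (-1.63), Gm28175 (0.76) and Pip5k1b (0.81) completed the named genes, and edgeR gave each an adjusted p of 0.999.

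With tau, the genes of smallest p were Cntnap5b, an adhesion molecule of the neurexin superfamily (148 ± 43.4 CPM, n = 5, against 58.6 ± 26.2 CPM, n = 4), Rsf1, a chromatin remodelling factor (163 ± 38.3 against 88.8 ± 6.63 CPM), and Pip5k1b, a lipid kinase (102 ± 35.8 against 225 ± 47.4 CPM). Rsf1 was higher and Pip5k1b lower in all 5 tau mice than in the controls of the fit, yet neither passed (edgeR, adjusted p = 0.858 and 0.915). The mice left out of the fit broke both separations, with Rsf1 at 16.6 CPM in the tau mouse and 133 CPM in the control, and Pip5k1b at 232 CPM in the tau mouse and 457 CPM in the control. Cntnap5b was at 16.6 CPM in the same tau mouse, below every control, and at 38.1 CPM in the control. Elavl4 (0.71), Rnf20 (1.36), Cux1 (0.77), Map3k13 (-0.75), Ndst3 (-1.40), Rnf144b (-0.84) and Sugp2 (-0.90) followed by p.

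Astrocyte genes were among those with large tau differences in Vip nuclei. Of these, Gpc5 was at 385 ± 307 CPM in P301S Cgas+/+ and 73.2 ± 42.6 CPM in Cgas+/+ mice. It passed an unadjusted p under 0.05 but not adjustment (edgeR, adjusted p = 0.9997). All 7 astrocyte genes had UMIs in Vip nuclei, and their summed level was 133 to 430 CPM in Cgas+/+ mice and 245 to 1998 CPM in P301S Cgas+/+ mice. The same list was at 308 to 1332 CPM in P301S Cgas-/- mice. In tau-free Cgas+/- mice it was at 251 to 954 CPM, and in tau-free Cgas-/- mice at 294 to 401 CPM. Its mean over all mice was 597 CPM, and 390 CPM without likely doublets.

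By gene group, no gene of the lists below was called in any of the 3 contrasts, and their counts at an unadjusted p under 0.05 are given beside the 4.10%, 4.72% and 6.04% of all genes. The lists were chosen with earlier results of these data known. Under other settings a few of their genes were called, in the heterozygous contrast Grik4, Kit, Kcnip1 and Igf1 with no low-count filter and Csmd3 with DESeq2, and with tau Cntnap5b with no filter. Of 9 genes named by the study in interneurons, 0 passed that threshold in any contrast. Their median log2 fold change was -0.02 with tau (range -0.17 to 0.23), -0.01 with the deletion (-0.19 to 0.17) and -0.01 in the heterozygous contrast (-0.66 to 0.32), beside medians of 0.00 for all genes. These values lay around those of all genes. Counts of signs in the lists below are a description only. The share of all genes with each sign was not counted, and the genes of a list come from the same few mice.

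The MEF2 family, activity-dependent transcription factors, and the class IIa HDACs that hold them in check had 7 genes tested. All 7 had negative values with tau, with a median of -0.13, 5 of 7 were positive with the deletion, with a median of 0.05, and 5 of 7 in the heterozygous contrast, with a median of 0.19. None reached an unadjusted p under 0.05. The sign of Mef2c itself was not stable, as its log2 level difference with tau was -0.04 in the main setting and 0.208 with at most 4000 genes per nucleus. Of 28 synaptic adhesion and neuregulin genes, 3 passed that threshold with tau, 0 with the deletion and 2 with 1 lost copy of Cgas. With the deletion 23 of the 28 were positive, with a median of 0.10.

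Receptors and channels were mixed in direction. Of 22 glutamate receptor genes, 1 passed an unadjusted p under 0.05 with tau, 4 with the deletion and 4 in the heterozygous contrast. The NMDA receptor subunits Grin2b (-0.29) and Grin2a (-0.51), the metabotropic receptor Grm5 (-0.30) and the kainate receptor subunit Grik3 (-0.97) were the 4 of the deletion, all negative. Grin2a turned positive with at most 4000 genes per nucleus (0.15), without likely doublets (0.058) and without subclusters 5 and 9 (0.35), and Grik3 with at least 4 Vip UMIs (1.88). In the heterozygous contrast they were Grm5 (-0.50), Grin2b (-0.37), Grm3 (-1.92), a receptor that astrocytes also express, and Grik4 (0.87). Of 38 excitability channel genes, 0, 2 and 5 passed in the same order, with Kcnip1, a regulator of potassium channels, at 0.46 for the deletion. With 1 lost copy of Cgas, Kcnip1 was at 0.61, Scn3a, a sodium channel, at 0.59 and Kcnq5, a potassium channel, at 0.34. Of 17 genes of GABA synthesis, transport and reception, 0, 1 and 1 passed, Gabra2 (-0.58) with the deletion and Gabra3 (-0.69) in the heterozygous contrast.

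Of the genes that define these cells, 10 CGE genes had a median of -0.18 with tau, 0.06 with the deletion and 0.18 in the heterozygous contrast. The 1 that passed an unadjusted p under 0.05 was Kit, in the heterozygous contrast (1.05, 158 ± 73.5 against 82.2 ± 75.1 CPM). Of 9 Vip subtype genes 8 had negative values with tau, and 2 passed in the heterozygous contrast, Grpr (1.01) and Igf1, a growth factor (0.68). The 7 acetylcholine and serotonin receptor genes tested had medians of -0.03, -0.02 and 0.07 in the 3 contrasts, and none passed. The 5 MGE genes tested had medians of 0.13, -0.05 and 0.11, and 1 passed, in the heterozygous contrast. Of 6 neuropeptide and peptide receptor genes, counted without Vip itself, 0, 1 and 3 passed, with medians of 0.05, -0.19 and -0.24. Of 5 activity-regulated genes, which neurons induce when they fire, 1 passed with tau (median 0.76) and none with the deletion (median -0.26) or in the heterozygous contrast, where all 5 were negative (median -0.33).

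The pathway that Cgas feeds was near the limit of detection. Of 52 interferon response genes 0 passed the low-count filter in Vip nuclei, and 6 (Ifit3b, Ifi44, Ifi207, Rsad2, Cxcl10 and Igtp) had 0 UMIs in Vip nuclei of all mice. Their summed level averaged 108 CPM in Cgas+/+ (68.6 to 152), 165 CPM in P301S Cgas+/+ (66.3 to 390), 150 CPM in P301S Cgas+/- (98.2 to 281) and 143 CPM in P301S Cgas-/- mice (106 to 189). The 10 genes of the cGAS-STING pathway summed to 77.8, 103, 121 and 108 CPM in the same order. Groups overlapped, and a change of single interferon genes in Vip interneurons was not detectable at this depth.

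Sex served as a check of the fit. Male and female mice differed in 6 genes (edgeR, 0.150% of those tested), namely Xist, the Y-linked Uty, Eif2s3y, Kdm5d and Ddx3y, and Ube3a, a ubiquitin ligase, which was 0.94 lower in females on the log2 scale (edgeR, adjusted p = 0.00912). With the header version as a covariate 5 genes were called, and Ube3a was no longer among them (edgeR, log2 difference -0.44, adjusted p = 0.971). All 12 libraries of version 3.0.2 were from males, in which Ube3a was at 303 to 659 CPM. In version 3.1.0 it was at 221 to 428 CPM in 4 males and at 157 to 307 CPM in 11 females, which overlapped.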

How the data were processed

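Nuclei sorted by DAPI from frozen hippocampi were profiled by the 10x 3′ v3 assay, with 1 library per mouse. The authors deposited raw UMI counts per gene and nucleus for 31053 genes on the mm10 build, and the submitters' processing notes name Cell Ranger 3.1.0 and Seurat 3.0, while 12 file headers carry version 3.0.2. Vip nuclei were found by the stated gate, and their counts were summed per mouse. Likely doublets were scored against simulated doublets (scanpy 1.11.5) and kept in the main results. The highest-scoring nuclei of each library were marked, at a preset 0.8% per 1000 barcodes, so no doublet rate was measured. The members and gene lists were chosen with earlier results of these data known.

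Summed counts (52470 to 451606 UMIs per mouse) were tested with edgeR 4.0.16 (R 4.3.3, TMM scaling, filterByExpr, robust quasi-likelihood fit) in 4 groups with sex as a covariate, leaving out mice with under 10 Vip nuclei. The contrasts were P301S Cgas+/+ minus Cgas+/+ (tau), P301S Cgas-/- minus P301S Cgas+/+ (deletion) and P301S Cgas+/- minus P301S Cgas+/+ (heterozygous). The effect in Vip nuclei was set against that in Sst, Pvalb and Lamp5 nuclei with the mouse as a block. A call needed an adjusted p under 0.05. DESeq2 1.42.0 was an alternative. The study itself tested single nuclei, whereas mice were the replicates here, and p-values measure the spread between mice. Shares and levels (pseudocount 1 on CPM) were compared by two-sided exact permutation tests over mice, in families of 3, 6 and 18 tests, and correlations by 100000 permutations (scipy 1.17.1). Subclusters came from scikit-learn 1.9.0 (neighbours) and igraph 0.11.9 (Leiden clustering), with 1000 genes, 12 components, 20 neighbours and a resolution of 0.8. Genes of the gate, sex chromosome genes and the 483 genes of an unadjusted edgeR p under 0.05 in a contrast were left out of the clustering. On data simulated for the tau contrast (4004 genes), 50.5% of genes changed by a fold of 2 and 95% of those changed by a fold of 4 were recovered, and for the Vip difference (6202 genes) 34.7% and 88.8%. Among genes left unchanged, 5 and 3 were called in these 2 simulations. Of the changed genes, 49 of 97 (fold of 2) and 95 of 100 (fold of 4) were called in the first. In the second these were 34 of 98 and 87 of 98. The simulated mice did not differ in subcluster makeup, nor by sex or header version, so recovery in the real data may be lower.

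For each contrast the text names the called genes, the 5 genes of smallest p in each direction among the rest, and up to 4 members per list by p. For the class profile it names the 20 highest ratios among genes of at least 20 CPM higher in every mouse. A few genes that these rules select are not reported here.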

Additional observations from a re-analysis of the deposited data

Results flagged for a closer look

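Of 52 sets of values in groups of 4 to 6 mice, genes of the gate left out, 6 had a lowest or highest mouse far from the others by Dixon's test, which chance alone does in about 1 of 20 groups. In P301S Cgas+/- mice Ptchd4 was highest in replicate 1, at 630 CPM, and Osbpl3 was lowest in replicate 2, at 200.4 CPM. Replicate 1 was also the library in which 67.1% of GABAergic nuclei had striatal genes. The share of subcluster 1 in P301S Cgas+/+ mice was highest in replicate 1, at 28.6%. The cortical marker level of P301S Cgas-/- mice was highest in replicate 6, at 3643 CPM, the mouse whose Vip share of 8.73% was also the highest of its group. On the log2(CPM + 1) scale the level of Cck was 0 in Cgas+/+ replicate 2 and that of Calb2 was 0 in P301S Cgas+/+ replicate 3, the mice with 7 and 6 Vip nuclei that were left out of the gene fit.

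The log2 fold change of Ptchd4 between P301S Cgas+/- and P301S Cgas+/+ mice differed between Vip nuclei and the other interneuron classes by 1.51, the 1 difference of this kind that edgeR called.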

How the results depend on the processing

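No paired analysis was possible because the labels give no replicate numbers, and those used here only follow the order of the samples. Over 107 results and 2079 alternative values, 1891 kept their direction and their side of the threshold or stayed within the spread. The results counted include levels of the gate genes and many genes not called in the main fit, so this total does not measure how stable the calls were. By the same measure the heterozygous count was kept in 5 of 13 other settings and in 3 of 11 fits that left out a mouse. The cause of the changes below was not tested. The count for the heterozygous contrast (5) was 28 with no low-count filter, 16 with DESeq2, 3 with the software version as a covariate, 2 with at least 5 nuclei per mouse, 1 without sex, 1 without subcluster 1, 0 without subclusters 5 and 9 and 0 with at least 4 Vip UMIs per nucleus (13 mice, smallest adjusted p in edgeR 0.952), and 1 to 6 with each mouse left out. For tau (0) it was 6 with no filter, 1 with only the 2 groups and 1 with DESeq2. For the deletion (0) it was 4 with no filter and 1 with DESeq2. The sex count (6) was 28 with no filter, 14 with at most 4000 genes per nucleus and 5 with the software version as a covariate. The counts of genes with another effect in Vip than in other interneurons were 4, 4 and 22 with no filter for tau, deletion and heterozygous, and 0 for the last with Lamp5 nuclei alone. The settings by software version, minimum of 5 nuclei, subcluster, 4-class and striatal denominator were chosen after seeing the data.

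The tau difference in Vip share (0.0806 points) was -0.435 with at least 4 Vip UMIs, -0.220 without nuclei with striatal markers, -0.0364 of all nuclei, -0.280 thinned, -0.145 without likely doublets, -0.146 without subclusters 5 and 9, and -0.396 to 0.554 with each mouse left out. The deletion difference was 3.61 with at most 4000 genes, 2.63 without likely doublets, 2.52 without subclusters 5 and 9, all of which passed, and 1.99 to 2.97 with each mouse left out (exact permutation test, adjusted p from 0.0260 to 0.169). It passed without P301S Cgas+/+ replicate 6. Subclusters 5 and 9 were removed from the Vip nuclei only, not from other GABAergic nuclei. The correlation of share with cortical level was 0.512 within version 3.0.2.

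Calb2 shares were 1.73 (tau) and -0.978 (deletion) points at 2 or more UMIs, and 4.43 (not thinned) and 4.62 (thinned to 2000) for heterozygous. Cck shares were 2.31 (tau, thinned to 2000), 0.649 and 0.996 (deletion, 2 or more UMIs and not thinned), and 1.62 and 2.50 (heterozygous, likewise). With each mouse left out, Calb2 shares were -0.179 to 3.85 (deletion) and -3.10 to 1.18 (heterozygous), and Cck shares -6.32 to 2.01 (tau), -2.86 to 1.09 (deletion) and -6.02 to 0.295 (heterozygous).

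With at most 4000 genes, log2 level differences were 0.124 (Gad2, tau), 0.208 (Mef2c, tau), -0.299 (Cck, deletion) and -0.0841 (Cck, heterozygous). With each mouse left out they were -0.0694 to 0.192 (Vip, deletion), -0.133 to 0.124 (Gad2, tau), -0.196 to 0.0461 and -0.110 to 0.0608 (Mef2c, tau and deletion), -0.0739 to 1.04 and -0.00528 to 1.10 (Calb2, deletion and heterozygous), and -0.643 to 1.17 and -0.292 to 0.445 (Cck, tau and deletion). Single genes that reversed in the deletion contrast were Gabra2 (0.458) and Grik3 (1.88) with at least 4 Vip UMIs, and Grin2a (0.148 with at most 4000 genes, 0.058 without doublets, 0.350 without subclusters 5 and 9). With 6 to 49 nuclei per mouse, genes under about the filter's level could not be tested.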
